A study of Mus musculus with 3 samples.

Results

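Promyelocyte-like cells were examined among CD133+ bone marrow cells of C57BL/6 mice as the cells richest in the transcript of Mpo, the myeloperoxidase of neutrophil granules. They were selected on a measured value: a cell was taken when it held at least 200 genes, at most 20% mitochondrial UMIs (unique molecular identifiers, each 1 captured RNA molecule), a UMI total between the 5th and 95th percentile of its own library, and at least 40 Mpo UMIs per 10000 UMIs. The rule found 3879 Mpo-high cells among 26838 kept cells, of 29828 cells in all. Cells had been sorted by flow cytometry for CD133, the surface protein encoded by Prom1, which the study used to seek endothelial progenitors, and were sequenced with the 10x Chromium 3′ v2 kit as 3 libraries. The young and control libraries came from mice labelled 3 months old, and the old library from mice labelled 27 months old, although the study's own text gives the old mice a younger age. The labels give the strain as C57BL/6. The study's text names C57BL/6N mice for a CD133 sort that gave 10869 cells, the size of the control library. It describes the young and old cells in a separate comparison. No genotype, transgene or treatment is named for any library, and the labels do not say how control mice differed from young mice. Each library pooled cells of 3 mice, so a difference between libraries cannot be told apart from a difference between sorts, runs or mice. No test was possible with 1 library in each group, and every interval below is a 95% interval that covers counting error only.

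Neutrophils are made in the marrow through a series of stages. At the promyelocyte stage the cells fill their first, azurophil granules with myeloperoxidase and with the serine proteases neutrophil elastase (Elane), proteinase 3 (Prtn3) and cathepsin G (Ctsg), which requires heavy protein synthesis and folding in the endoplasmic reticulum (ER). Myelocytes that follow make the specific granules, with lactoferrin (Ltf), cathelicidin (Camp) and neutrophilic granule protein (Ngp), and later cells make gelatinase granules and leave the cell cycle. Transcription factors of the C/EBP, RUNX, MYB and ETS (PU.1) families are known to act on the azurophil granule genes.

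The proximal promoters of Mpo and of the 3 protease genes used as markers are shown because these genes define the cells, and capitals mark short motifs matched in them. Each runs 5′ to 3′ from 250 bases before to 50 bases after the RefSeq start on GRCm38.p6. The Mpo window is chr11:87793534-87793833 on the plus strand, the Elane window chr10:79886062-79886361 on the plus strand, the Prtn3 window chr10:79879417-79879716 on the plus strand and the Ctsg window chr14:56102525-56102824 on the minus strand. Sequences are from RefSeq.
Mpo: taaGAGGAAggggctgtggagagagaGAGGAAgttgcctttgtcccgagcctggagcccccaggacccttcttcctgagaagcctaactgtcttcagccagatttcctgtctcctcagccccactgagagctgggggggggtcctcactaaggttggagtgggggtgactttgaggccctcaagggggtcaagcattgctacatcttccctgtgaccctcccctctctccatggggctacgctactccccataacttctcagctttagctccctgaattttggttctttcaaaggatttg
Elane: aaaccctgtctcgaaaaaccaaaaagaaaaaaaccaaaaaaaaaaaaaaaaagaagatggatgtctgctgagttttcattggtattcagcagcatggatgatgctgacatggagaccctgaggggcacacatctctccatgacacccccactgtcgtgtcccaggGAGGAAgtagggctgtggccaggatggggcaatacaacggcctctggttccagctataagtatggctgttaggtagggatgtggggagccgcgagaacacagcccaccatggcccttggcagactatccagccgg
Prtn3: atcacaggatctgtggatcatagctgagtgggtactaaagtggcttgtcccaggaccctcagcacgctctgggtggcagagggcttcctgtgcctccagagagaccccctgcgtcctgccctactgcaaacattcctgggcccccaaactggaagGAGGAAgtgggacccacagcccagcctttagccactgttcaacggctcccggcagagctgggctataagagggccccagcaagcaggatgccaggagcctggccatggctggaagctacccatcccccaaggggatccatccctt
Ctsg: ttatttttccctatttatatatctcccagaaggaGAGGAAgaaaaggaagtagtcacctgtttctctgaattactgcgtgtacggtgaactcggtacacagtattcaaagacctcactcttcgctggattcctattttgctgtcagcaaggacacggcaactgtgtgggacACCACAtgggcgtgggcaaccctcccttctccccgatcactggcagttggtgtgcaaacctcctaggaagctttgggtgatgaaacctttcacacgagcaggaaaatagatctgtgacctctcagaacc
Searched on both strands were GAGGAA (PU.1), TGTGGT (RUNX), TTGCNNAA (C/EBP) and TAACGG (MYB). No matches overlapped one another. GAGGAA was found in all 4 windows, at 2 places in Mpo and at 1 place in each of Elane, Prtn3 and Ctsg, and 28.3% of 32851 promoters of 300 bases hold it. TGTGGT was found in Ctsg alone, on the other strand, and 16.8% of promoters hold it. TTGCNNAA, held by 10.8% of promoters, and TAACGG, held by 2.76%, were not in these windows. A match is a run of letters and not a site of binding.

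The label was checked against its markers. In the annotation of GRCm38, Mpo lies on chromosome 11 at 87793581 to 87804413, Elane on chromosome 10 at 79886247 to 79888215, Prtn3 on chromosome 10 at 79874476 to 79883174 and Ctsg on chromosome 14 at 56099881 to 56102574. Mpo overlaps Gm11505 and Prtn3 overlaps Plppr3 on the opposite strand, and whether counting used the strand is not given in the sources used here. Mpo, which the rule used, was at 9408 CPM (UMIs scaled to 1000000 in each summed set of cells) in Mpo-high cells of the young library (9359 to 9457), 8028 in control (7987 to 8070) and 6940 in old (6899 to 6980). Elane was at 25009 CPM in young, 23110 in control and 18292 in old, against 2590, 3460 and 2758 CPM in the other kept cells. Prtn3 was at 7838, 8766 and 8160 CPM, against 872, 1466 and 1448 CPM. Ctsg was at 4217 CPM in young (4184 to 4250), 4361 in control (4331 to 4392) and 6681 in old (6642 to 6721), against 214, 276 and 426 CPM. All 4 markers were thus more abundant in Mpo-high cells of each library, which is what promyelocytes are known for, but the rule chose these cells by Mpo and the contrast is a description. In this contrast 18.4% of 5660 genes with at least 10 CPM were at least 2 times higher in all 3 libraries, and 2.88% were at least 2 times lower. The whole set was shifted, with a median log2 ratio of 0.49 in young, 0.52 in control and 0.54 in old, and after centring on that median 384 genes (6.78%) were higher and 390 (6.89%) lower instead of 1039 and 163.

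Mpo-high cells made up 17.7% of kept cells in the young library (1332 of 7521, 16.9% to 18.6%), 15.1% in control (1474 of 9780, 14.4% to 15.8%) and 11.3% in old (1073 of 9537, 10.6% to 11.9%). The old share was the lowest of these 3 libraries. The exact binomial intervals describe counting error over the cells of a library and compare no conditions. With cells of at least 5 UMIs of other-lineage markers left out the shares were 14.2% in young (13.3% to 15.1%), 13.5% in control (12.8% to 14.2%) and 8.82% in old (8.25% to 9.43%). Those markers include Vcam1, which 60.6%, 56.5% and 58.5% of unthinned Mpo-high cells held. The step removed 40.9%, 14.2% and 25.3% of Mpo-high cells, against 23.0%, 2.18% and 2.21% of the other cells. It therefore took out Mpo-high cells more often than other cells, and the part of Vcam1 in these shares was not tested. Within Mpo-high cells the median Mpo value was 91.9 UMIs per 10000 in young, 77.1 in control and 67.3 in old. Cells with at least 120 made up 20.8% of Mpo-high cells in young (277 cells), 9.23% in control (136 cells) and 2.05% in old (22 cells). These values describe the same distribution of Mpo that the rule used. The threshold cuts a continuous range: 41, 88 and 103 cells lay just under it (36 to under 40 per 10000) and 37, 86 and 86 just over it (40 to under 44). Elane in these edge cells was at 16164 CPM under and 16872 over in young, 17149 and 17715 in control, and 14654 and 15438 in old, so cells on either side were alike in it. Mpo-high cells had a median of 11952.5 UMIs in young, 12677 in control and 15510 in old, against 9170, 9155.5 and 12669.5 in the other cells. Their median mitochondrial share was 2.73%, 2.73% and 2.42%, against 1.16% in the other cells of control and 1.01% in those of old.

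**Figure D1:**
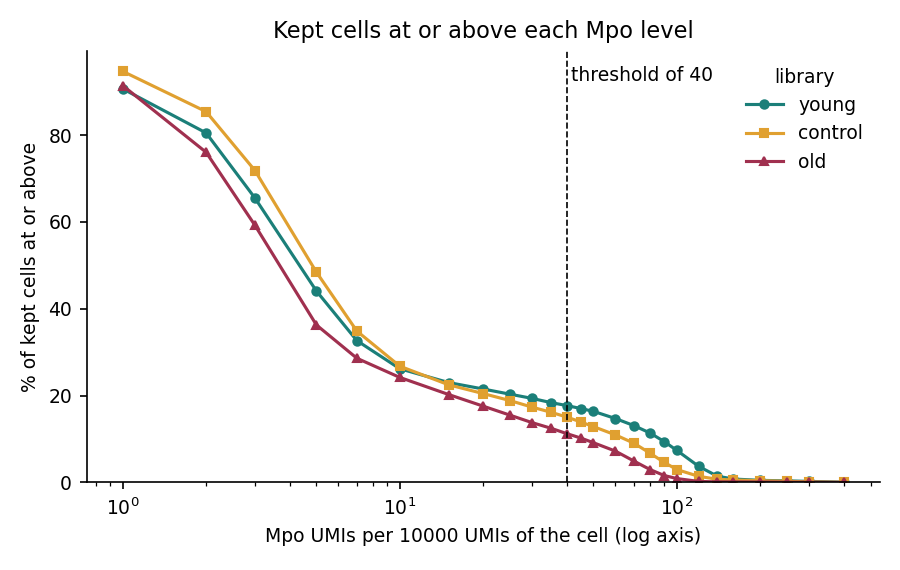
Share of kept cells (%, vertical axis) at or above each Mpo level (UMIs per 10000 UMIs of the cell, log horizontal axis) in the young, control and old libraries. The dashed line is the threshold of 40, where the curves pass 17.7%, 15.1% and 11.3%, and no gap in the curves marks the threshold.

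Beyond the 4 markers, the azurophil granule list held 4 of 10 measured genes (40%, against 18.4% of all genes) at least 2 times higher and none lower. Srgn, whose proteoglycan serglycin packs proteases into granules, was at 2076 CPM in young, 1858 in control and 2454 in old, with log2 ratios to the other cells of 3.37, 3.26 and 3.04. Prss57, a further neutrophil serine protease gene, was at 438, 438 and 459 CPM with log2 ratios of 2.31, 2.23 and 2.11. The remaining members were lysosomal enzymes and Cd63, a granule membrane protein. Cd63 was at 2064, 1931 and 1912 CPM with log2 ratios of 1.01, 0.80 and 0.86, which did not reach the limit in 2 libraries. Gusb (β-glucuronidase) and Gla (α-galactosidase) passed the limit. Without the markers the list's median log2 ratio was 0.86, 0.89 and 0.68, against about 0.5 for all genes, and 3 of the 10 genes were past the limit after centring, against 6.78% of all genes. With the markers, Mpo among them, 8 of 14 genes were higher (7 after centring) and the medians were 1.35, 1.57 and 1.32. Cst7 (cystatin F, an inhibitor of lysosomal cysteine proteases) was also among the 15 most raised genes, at 365, 352 and 329 CPM against 42.8, 50.7 and 51.1 CPM in the other cells.

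Genes of the secretory pathway were high in Mpo-high cells. Of the ER translocation and N-glycosylation list, which brings new proteins into the ER and attaches sugars to them, 19 of 32 measured genes (59.4%, against 18.4% of all genes) were at least 2 times higher and none lower. Ssr2, a subunit of the translocon-associated complex, was at 361, 443 and 362 CPM with log2 ratios of 2.04, 2.03 and 2.11. Of the ER folding and stress list 16 of 23 measured genes (69.6%) were higher and none lower. Calr (the chaperone calreticulin) was at 767 CPM in young, 920 in control and 640 in old, with log2 ratios of 2.93, 2.73 and 2.75. Sdf2l1, an ER chaperone partner, was at 656, 1040 and 735 CPM with log2 ratios of 3.06, 2.95 and 2.87, and Hspa5 (the ER chaperone BiP) at 705, 1069 and 633 CPM with log2 ratios of 2.20, 2.13 and 1.93. The 3 transcription factor genes on that list did not pass the limit: Xbp1 had log2 ratios of 0.42, 0.57 and 0.80, Atf4 of 0.25, 0.71 and 0.72, and Ddit3, which was under the minimum in old, of 0.67, 0.11 and -0.02. After centring, 5 genes of the translocation list (15.6%) and 10 of the folding list (43.5%) were past the limit, against 6.78% of all genes.

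Ribosome production and translation followed. Of the ribosome biogenesis list 24 of 26 measured genes (92.3%) were at least 2 times higher, with a median log2 ratio of 1.76 in young, 2.22 in control and 2.34 in old, and 17 (65.4%) passed the limit after centring, against 6.78% of all genes. Npm1 (nucleophosmin) was at 605, 1086 and 688 CPM, with log2 ratios of 1.60, 2.36 and 2.33, and Gnl3 (nucleostemin) at 44.4, 113 and 60.4 CPM, with log2 ratios of 2.61, 3.40 and 4.05. Tma16 and Wdr12, both of large-subunit assembly, were among the 15 most raised genes, as was Srm (spermidine synthase), at 96.3, 250.04 and 122 CPM against 10.6, 23.6 and 7.01 CPM in the other cells. The 77 measured cytosolic ribosomal protein genes held 46 past the limit (59.7%, against 18.4% of all genes), with median log2 ratios of 1.32, 1.40 and 1.06, but 0 after centring. Ribosomal protein genes have near-identical pseudogene copies, so that single members are uncertain. Of 12 mitochondrially encoded genes 7 passed the limit (58.3%), and 1 after centring (8.33%), which is near the share of all genes. Further genes among the 15 most raised were Phgdh (the first enzyme of serine synthesis, 90.9, 132 and 117 CPM), Apex1 (a base excision repair nuclease, 62.3, 98.7 and 73.1 CPM), Nkg7 (a cytotoxic granule membrane protein, 2094, 1986 and 1656 CPM), Mgl2 (a galactose-binding lectin, 122, 109 and 64.5 CPM) and Dmkn (the secreted protein dermokine, 183, 287 and 504 CPM).

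**Figure D2:**
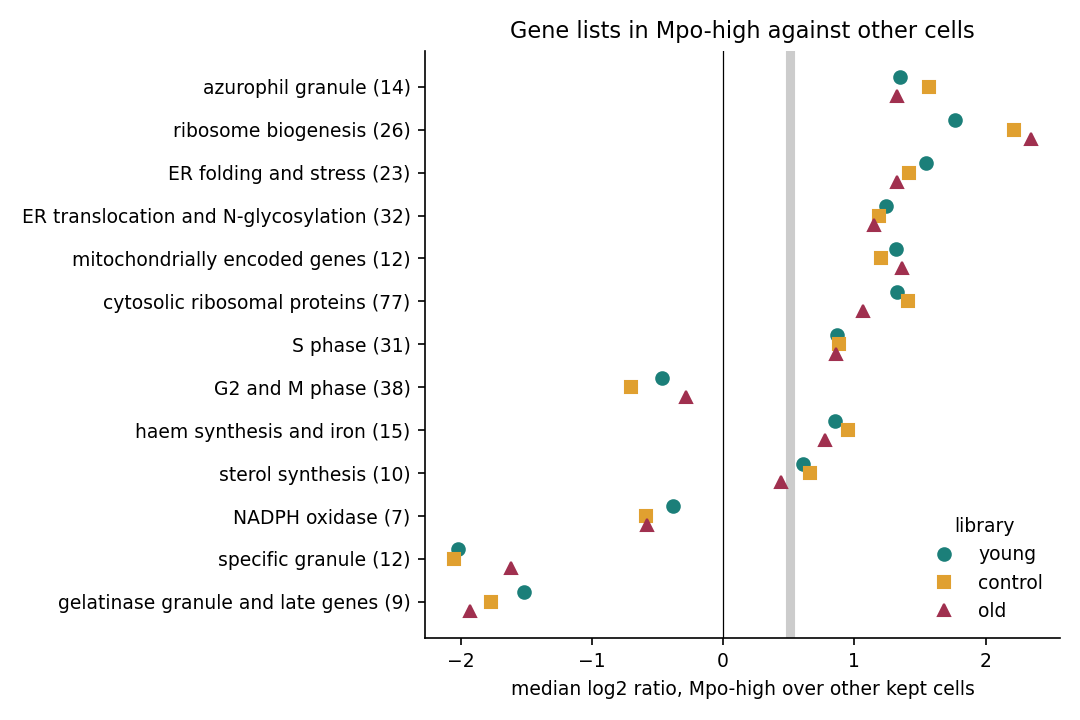
Median log2 ratio of CPM in Mpo-high over other kept cells (horizontal axis) for 13 gene lists, 1 point for each library, with the number of genes measured in brackets (the azurophil list includes the 4 markers); the grey band spans the medians of all measured genes, 0.49 to 0.54. The ribosome biogenesis list lies furthest right (1.76 to 2.34) and the granule lists of later stages furthest left.

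Genes of later neutrophil stages were low. Of the specific granule list 8 of 12 measured genes (66.7%, against 2.88% of all genes) were at least 2 times lower and none higher, and 11 were lower after centring. Ltf was at 601 CPM in young, 664 in control and 890 in old against 6339, 6071 and 6731 CPM in the other cells, and Lcn2 (lipocalin 2) at 980, 1415 and 2096 CPM against 7788, 9731 and 10660 CPM. Of the gelatinase granule and late genes 5 of 9 (55.6%) were lower, with Retnlg (resistin-like gamma) at 418, 157 and 405 CPM against 1198, 535 and 1544 CPM. After centring 8 of the 9 were lower (88.9%, against 6.89% of all genes). Mmp9 (gelatinase B) was at 20.8, 12.0 and 24.7 CPM with log2 ratios of -2.33, -2.43 and -2.56. The 15 lowest genes also took in Ifitm6, the formyl peptide receptor gene Fpr2, St3gal5 (ganglioside GM3 synthase), Ly6g (a surface marker of neutrophils), Plbd1, AA467197, S100a6, Lyz2 (lysozyme), Degs1 (ceramide desaturase), Padi4 (the histone-citrullinating enzyme), Lgals3 (galectin 3) and Ngp. Their least extreme log2 ratios among the 3 libraries ran from -2.34 for Padi4, Lgals3 and Ngp to -2.99 for Ifitm6. Of 7 NADPH oxidase genes Cybb alone (14.3%, and 2 genes after centring) passed the limit, with log2 ratios of -1.72, -1.76 and -1.49.

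Specific granule transcripts were not absent from Mpo-high cells. Camp was at 18044 CPM in young, 14909 in control and 10765 in old, and Ngp at 9503, 10349 and 11739 CPM. In 174 cells of the young library with at least 20 UMIs of B, NK and T cell markers, which should lack neutrophil granule genes, Camp was at 12016 CPM and Ngp at 9988 CPM, at a median of 7316.5 UMIs. Ngp in Mpo-high cells of that library was thus at the level of the lymphoid cells, and Ltf, at 601 CPM, was below their 1170 CPM. Elane in the same lymphoid cells was at 1157 CPM and Mpo at 375 CPM, far under the Mpo-high cells. The control and old libraries held 12 and 2 such lymphoid cells, too few for this comparison. Doublets had not been removed from these cells, and the part of free RNA or doublets in their granule transcripts was not tested.

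Prom1, the gene of the sorted protein CD133, was at 68.5 CPM in Mpo-high cells of young (64.4 to 72.8), 74.4 in control (70.5 to 78.6) and 69.8 in old (65.8 to 74.0). The other kept cells had 36.5, 47.6 and 43.0 CPM. The log2 ratio of old to young Mpo-high cells was 0.03 (-0.09 to 0.15) and of old to control -0.09 (-0.21 to 0.02), and both intervals include 0. They cover counting error in 1 library a group, and the cells had been sorted on the protein of this gene, so these values do not compare Prom1 between ages. With each cell thinned to 4000 UMIs, 23.3% of Mpo-high cells of young (21.0% to 25.7%), 24.2% of control (22.01% to 26.5%) and 23.0% of old (20.5% to 25.7%) held a Prom1 UMI, after 40, 32 and 0 shallower cells were left out. Unthinned shares were 51.5%, 56.1% and 61.8%. The other cells, thinned alike, held one in 12.8%, 16.5% and 14.96%, the cells with 10 to under 40 Mpo UMIs per 10000 in 18.9%, 22.2% and 22.5%, and lymphoid cells of young in 2.61% of 153 cells (0.717% to 6.56%). Cdh5, the endothelial cadherin gene, had 1 UMI in young, 1 in control and 0 in old over all Mpo-high cells. Of the endothelial marker list Egfl7 alone reached the minimum, at 10.5, 12.1 and 15.4 CPM, and 6, 6 and 9 of its 15 genes had no UMI.

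Among 17 measured myeloid transcription factor genes 4 (23.5%) were at least 2 times higher and 1 lower, a share near the 18.4% of all genes. Myb was at 123, 98.1 and 74.6 CPM with log2 ratios of 1.88, 2.03 and 1.98. Gfi1, a repressor needed for neutrophil fate, was at 51.7, 66.2 and 60.6 CPM with log2 ratios of 1.83, 1.70 and 1.88. Myc and Cebpa (C/EBPα, of granulocyte commitment) had log2 ratios of 2.74, 2.85 and 3.29, and of 2.03, 2.65 and 2.58. Factors of later or other stages did not pass in the same direction: Cebpe (C/EBPε, of specific granule genes) was at 812, 679 and 743 CPM with log2 ratios of -0.37, -0.59 and -0.35, and Spi1 (PU.1) had log2 ratios of -0.14, -0.30 and -0.29. Klf5 was the 1 lower gene, and after centring 4 (23.5%, against 6.78% of all genes) were higher and 2 lower. Of 19 measured receptor genes Ifngr1 (an interferon gamma receptor chain) was the 1 higher gene (5.26%, against 18.4% of all genes), at 246, 218 and 232 CPM, and not after centring, while Itgb2 (the β2 integrin) and Cxcr2 (a chemokine receptor of neutrophil release) were lower (10.5%, against 2.88%). After centring 5 of the 19 were lower (26.3%, against 6.89%).

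Of the cell cycle genes, 10 of 31 of S phase (32.3%, against 18.4% of all genes) were at least 2 times higher and none lower, with median log2 ratios of 0.87, 0.88 and 0.86. After centring 2 passed (6.45%, against 6.78%), so the S phase list was then at the share of all genes. Hells (a helicase-like chromatin remodeller) was at 99.6, 112 and 92.97 CPM with log2 ratios of 1.31, 1.49 and 1.55. Of 38 G2 and M phase genes none was higher and 3 were lower (7.89%, against 2.88% of all genes), or 7 after centring (18.4%, against 6.89%), with medians of -0.46, -0.70 and -0.28, while all genes had medians near 0.5. Mki67, a marker of cycling cells, was at 83.03, 68.8 and 81.6 CPM against 123, 129 and 102 CPM in the other cells. Of the haem and iron list 3 of 15 genes (20%, near the 18.4% of all genes) were higher, Fech, Slc25a39 and Tfrc, or 1 (6.67%, near 6.78%) after centring, and Hmox1 was lower, while none of 10 sterol synthesis genes and none of 7 interferon-stimulated genes passed either way. Of 9 protease inhibitors Cst7 and Spint2 were higher (22.2%, near the 18.4% of all genes, and 1 of them after centring) and Serpinb6a, Stfa1 and BC100530 lower (33.3%, against 2.88%, or 44.4% against 6.89% after centring). Ccnd2 (cyclin D2) was at 72.7, 84.0 and 30.2 CPM against 15.3, 5.56 and 1.31 CPM.

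Cells with 10 to under 40 Mpo UMIs per 10000 were the most similar in Mpo, 637 in young, 1144 in control and 1233 in old. Against them 227 genes were at least 2 times higher in Mpo-high cells and 41 lower, of 5607 measured, and 224 and 40 of these had also passed against all other cells. The summed S phase list was at 3294, 3043 and 3396 CPM in them, near the 3510, 3335 and 3537 CPM of Mpo-high cells. The summed ribosome biogenesis list was at 1443, 2468 and 1418 CPM in them, against 3192, 5431 and 3546 CPM in Mpo-high cells. Within the Mpo-high cells several genes graded with Mpo, in bands of 40 to under 60, 60 to under 80, 80 to under 120 and at least 120 UMIs per 10000. Ctsg rose over these bands from 1753 to 2654, 4762 and 6752 CPM in young, from 2160 to 4062, 5225 and 9656 CPM in control, and from 4325 to 7082, 8916 and 18072 CPM in old. In each band the old library had the highest Ctsg of the 3, while its Elane was the lowest, at 16308 CPM in the lowest band against 18252 in young and 19227 in control. The highest band held 22 cells in old, and the part of the Mpo level in the Ctsg difference between libraries was not tested.

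**Figure D3:**
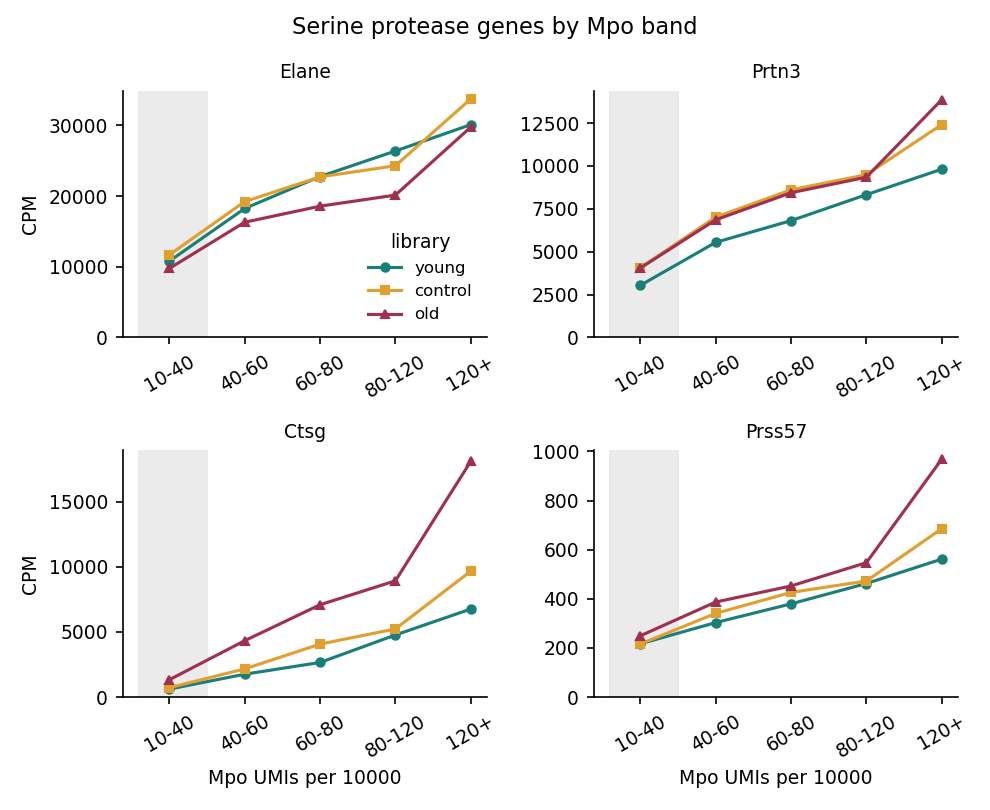
CPM (vertical axis) of Elane, Prtn3, Ctsg and Prss57 by Mpo band (UMIs per 10000, horizontal axis) in the young, control and old libraries; the shaded band of 10 to 40 lies under the threshold. Ctsg climbs from 1753, 2160 and 4325 CPM to 6752, 9656 and 18072 CPM, with the old library highest in every band.

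Over the first 3 bands the specific granule list fell, from a summed 63242 to 47946 and 24646 CPM in young, 53288 to 32217 and 23459 in control, and 44475 to 26950 and 20894 in old. Cebpe fell over all 4 bands, from 963 to 699 CPM in young, 821 to 487 in control and 870 to 479 in old, and Mki67 from 126 to 58.5, 98.4 to 45.5 and 103 to 45.2 CPM between the lowest and highest band. In the highest band the sum was 19090 CPM in young but 26307 in control and 31529 in old, above the band before it in both. The ER folding list rose over the 4 bands from 4380 to 9079, 6444 to 13140 and 4751 to 13322 CPM. Kit, the stem cell factor receptor of early progenitors, was at 23.8 CPM in the lowest and 39.4 in the highest band of young, 12.7 and 28.3 in control, and 6.44 and 13.6 in old. The highest band differed in quality between libraries: its median UMI total was 11098 in young but 7613 in control and 6579 in old, and its median mitochondrial share was 2.97%, 4.69% and 8.74%. The part of these values in the results for that band was not tested.

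**Figure D4:**
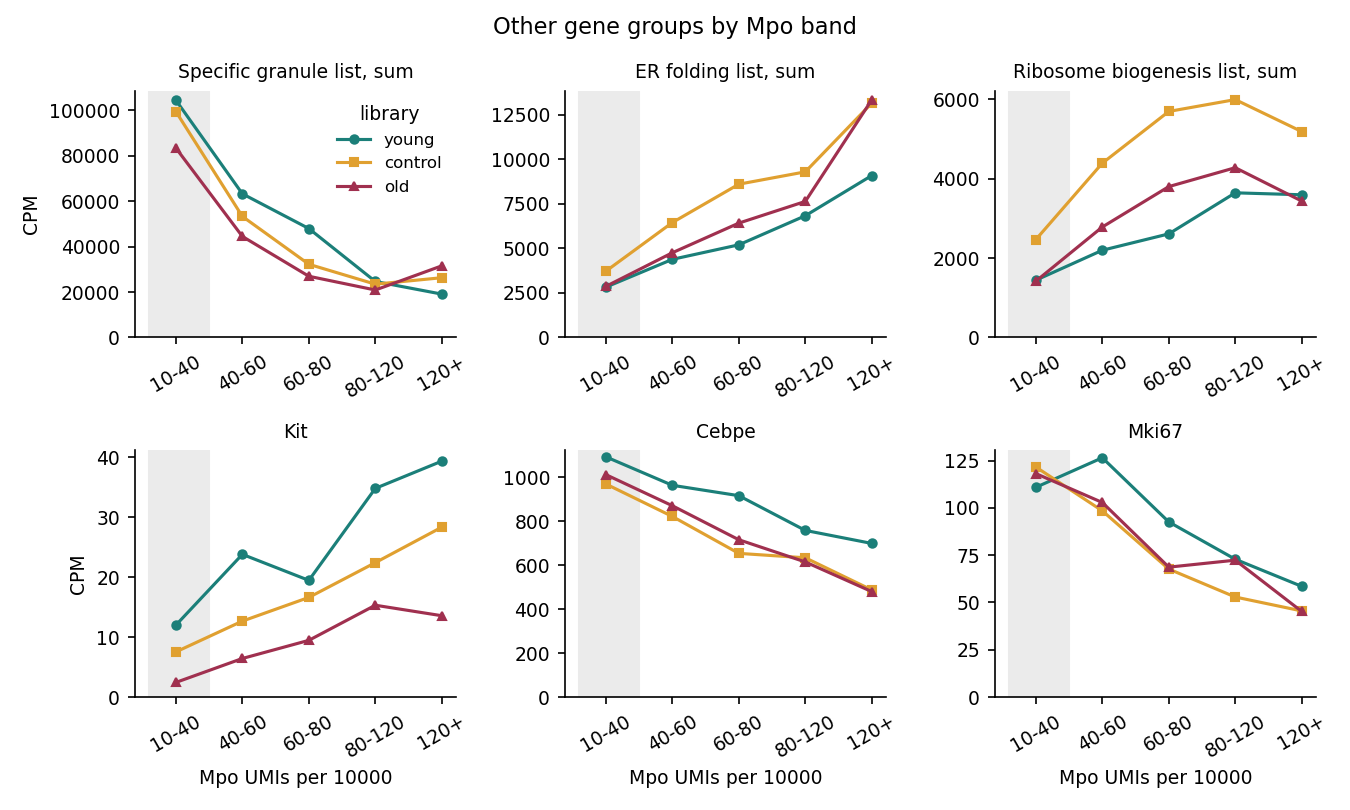
CPM (vertical axes, from 0) of 3 summed gene lists and 3 genes by Mpo band (UMIs per 10000, horizontal axis) in the 3 libraries; the shaded band of 10 to 40 lies under the threshold. Cebpe falls and the ER folding list rises over the bands in each library, the specific granule list turns up again in the highest band of control and old, and Kit is ordered young, control, old in each band.

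The libraries were then compared within Mpo-high cells, over 6444 genes with at least 10 CPM in at least 1 library. A gene was counted when a library lay at least 1.5 times beyond both others. The young library was above both others in 4.27% of genes and below both in 1.19%, control in 1.63% and 1.52%, and old in 2.23% (144 genes) and 2.34% (151 genes). The libraries' median log2 ratios over all genes were near 0, at -0.04 for old over young and -0.03 for old over control.

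Ctsg was the 1 azurophil granule gene counted as higher in old, with a log2 ratio of 0.66 (0.65 to 0.68) to young and 0.62 (0.60 to 0.63) to control, while Elane had -0.45 and -0.34 and Prtn3 0.06 and -0.10. In the other kept cells Ctsg was at 214, 276 and 426 CPM, also highest in old. Dmkn was counted as higher in old, at 504 CPM against 183 and 287. The largest distances above both others in old were in BC100530 and Stfa1, of the stefin A cluster of cysteine protease inhibitors, at 84.0 CPM against 2.37 in young and 2.74 in control, and at 62.8 CPM against 5.60 and 6.05. Stefin A genes have near-identical copies, so that reads may be shared among them, and 4 cells with at least 10 UMIs of BC100530 held 26.7% of its UMIs in old. Clu (the secreted chaperone clusterin) was at 58.8 CPM (55.1 to 62.6) in old against 1.78 in young and 6.94 in control. In unthinned cells, 55.1% of the old Mpo-high cells held at least 1 Clu UMI against 1.95% and 7.67%. The old cells held more UMIs, and the part of depth or free RNA in these shares was not tested. Clu in the other kept cells was at 0.89, 1.46 and 19.2 CPM, lower than in Mpo-high cells of each library. Further genes were Ifitm1 (169 against 16.7 and 6.16 CPM), Wfdc17 (80.1 against 12.8 and 3.58), the linker histone gene H1f0 (87.8 against 17.0 and 17.4), Lipg (endothelial lipase, 86.3 against 2.70 and 18.0), S100a6 (358 against 96.5 and 42.9), Il1r2 (the decoy interleukin 1 receptor, 87.6 against 30.05 and 28.04) and Lrg1 (669 against 136 and 234). The 9 genes other than Clu were lower in Mpo-high than in the other kept cells of each library, and in those other cells too they were highest in old, such as S100a6 at 582, 258 and 2180 CPM. Ifitm genes also have close copies.

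Annexins, calcium-dependent membrane-binding proteins, were higher in old for 4 of 6 measured genes, against 2.23% of all genes. Anxa1 was at 1169 CPM in young, 1256 in control and 3195 in old, a log2 ratio of 1.45 (1.43 to 1.48) to young and 1.35 (1.32 to 1.37) to control, and Anxa2 at 115, 81.8 and 179 CPM. Anxa1 overlaps 1500015L24Rik on the opposite strand. In the other cells Anxa1 was at 3416, 3706 and 6181 CPM. Of the sterol synthesis list, which makes cholesterol from acetyl units, 7 of 20 measured genes were higher in old, against 2.23% of all genes, and 8 lower in young, against 1.19%; of the 10 with at least 10 CPM in all 3 libraries these were 3 and 4. Fdps (farnesyl diphosphate synthase, a branch point of the pathway) was at 211 CPM in young (204 to 219), 331 in control (323 to 340) and 563 in old (552 to 575). Its log2 ratio was 1.41 (1.36 to 1.47) between old and young and 0.76 (0.72 to 0.81) between old and control, and control and young differed as well, by 0.65 (0.59 to 0.71). Fdps overlaps Gm43738 and Gm22935 on its own strand. In the other kept cells Fdps was at 78.2, 158 and 342 CPM, in the same order. Msmo1, a later enzyme of the pathway, was at 16.9, 27.8 and 46.3 CPM. Tspo, a mitochondrial outer membrane protein linked to cholesterol, was at 818, 1031 and 1623 CPM, and at 793, 1219 and 1794 CPM in the other cells.

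Genes lower in old than in both others included Kit, Cebpa and Ccnd2. Kit was at 30.8 CPM in young (28.1 to 33.8), 18.5 in control (16.6 to 20.6) and 9.85 in old (8.39 to 11.5), Cebpa at 41.2, 42.5 and 24.8 CPM and Ccnd2 at 72.7, 84.0 and 30.2 CPM. Over all Mpo-high cells Kit reached the 10 CPM minimum in young and control only. Kit differed in the same order in each of the 4 Mpo bands. Of the ER folding list 4 of 25 measured genes were lower in old, against 2.34% of all genes: Hsp90b1 (the chaperone GRP94, 513, 649 and 317 CPM), Herpud1, Dnajb9 and Hyou1. Of the 23 with at least 10 CPM in all 3 libraries 3 were lower, since Hyou1 reached that minimum only in young and control. The same list had 3 genes below both others in young, against 1.19% of all genes. It had 3 above both others in control, against 1.63%. Its median log2 ratio was -0.10 for old over young and -0.46 for old over control. Erdr1 (53.1, 49.4 and 21.4 CPM), the lectin gene Clec4b2 (65.9, 55.1 and 24.6), Fam132a (64.4, 47.4 and 22.5), Ifi27 (280, 91.4 and 45.5) and Hdc (histidine decarboxylase, 134, 116 and 58.7) were also among the 10 genes furthest below both others in old, with Ccnd2, Ifi27l2a (193, 5.88 and 1.96), Prss34 and the globin genes Hba-a1 and Hbb-bs, of which the globins have near-identical copies.

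The control library stood apart by genes of ribosome production. Of 27 measured ribosome biogenesis genes 11 were above both others in control, against 1.63% of all genes, and 26 of the 27 had at least 10 CPM in all 3 libraries. Npm1 was at 1086 CPM in control against 605 in young and 688 in old, and Ncl (nucleolin) at 763 against 424 and 460. The 5 genes furthest above both others in control were Hspd1 and Hspe1 (the mitochondrial chaperonin pair, 378 against 174 and 181 CPM and 550 against 273 and 233), Srm (250.04 against 96.3 and 122), Set (631 against 312 and 307) and Tfrc (the transferrin receptor, 75.7 against 39.1 and 23.5). Myc was also highest in control, at 62.6 CPM (59.0 to 66.4) against 40.1 (37.0 to 43.4) and 29.7 (27.1 to 32.4). In the other cells Srm was at 10.6, 23.6 and 7.01 CPM, again highest in control. Furthest below both others in control were Wfdc17, Rtp4, Ifitm1, Mcpt8 and Retnlg, the last at 157 CPM against 418 and 405. Rtp4 reached the minimum in young alone (115 CPM). Its place rests on 0.50 CPM in control (9 UMIs) against 1.53 in old (25 UMIs in 14 cells), both near 0. Mcpt8 was at 20.4 CPM in control against 137 in young, but without its UMIs in 4 young cells that held at least 10 each it was at 31.3 CPM in young.

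Of the study's further genes, Ceacam1 (an adhesion molecule) was at 70.5, 64.8 and 55.8 CPM against 127, 137 and 135 CPM in the other cells, with log2 ratios of -0.85, -1.08 and -1.27. Ccnd1 (cyclin D1, 0.72, 0.22 and 0.24 CPM) and Cdkn1a (the cell cycle inhibitor p21, 2.77, 1.62 and 3.37 CPM) were under the minimum in each library.

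The young library stood apart by interferon-stimulated genes, which antiviral cytokines induce. All 21 measured were above both others in young, against 4.27% of all genes. However, 14 of them reached 10 CPM in young alone, so young had to be the highest library for these. The 7 with at least 10 CPM in all 3 libraries were also above both others. Isg15 was at 92.5 CPM in young, 5.71 in control and 3.49 in old, Rtp4 at 115, 0.50 and 1.53 CPM and Bst2 (tetherin) at 203, 59.0 and 37.1 CPM. In the other cells Isg15 was at 177, 9.65 and 3.73 CPM, so the young library had it highest there as well. The 5 genes furthest above both others in young were Rtp4, Ifi27l2a, Prss34, Isg15 and Hba-a1. The levels of Prss34 and Hba-a1 in young rested in part on few cells. Without their UMIs in cells holding at least 10 of them (4 cells for Prss34 and 3 for Hba-a1 in young, and 1 for Hba-a1 in control), Prss34 was at 21.4 CPM and Hba-a1 at 27.7 CPM in young. Both values are under the 50 CPM used to name genes. Hba-a1 was then at 6.66 CPM in control and 1.10 in old, and Prss34 at 6.44 and 2.45 CPM, so both stayed highest in young. Lipg, Wdfy1 (11.0, 46.0 and 51.9 CPM), Clu, the kinase gene Pim1 (27.2, 82.1 and 131) and the inhibitory receptor gene Pirb (16.8, 45.4 and 78.95) lay furthest below both others in young.

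**Figure D5:**
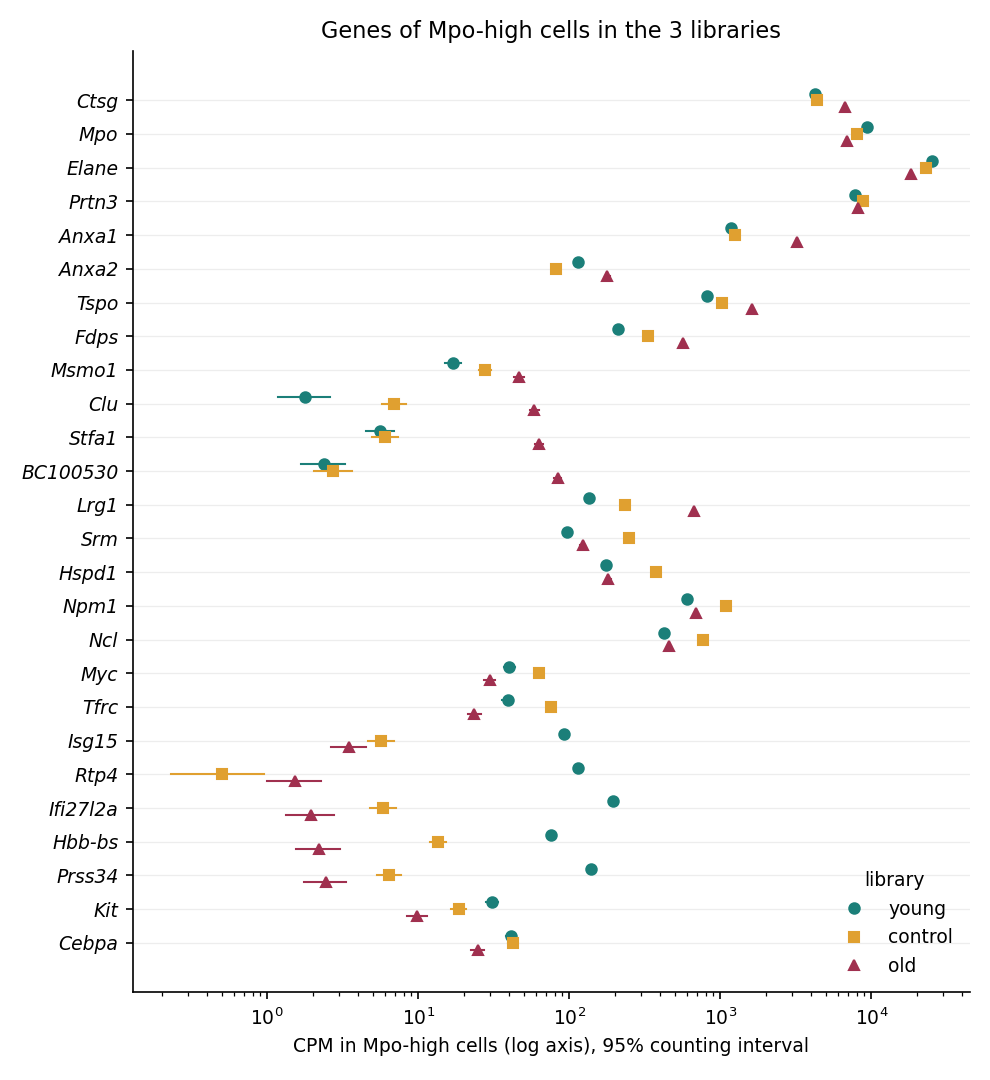
CPM in Mpo-high cells (log horizontal axis) of 26 genes in the young, control and old libraries, with 95% Poisson intervals as bars, which are often narrower than the symbol. Annexin, sterol and stefin genes lie highest in old, Srm to Tfrc highest in control, and Isg15 to Kit highest in young.

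Markers of other cell types moved with the libraries. Summed monocyte markers were at 95.9 CPM in Mpo-high cells of young, 26.0 in control and 42.7 in old, with none of 9 genes at 0, and with Ms4a6c the most abundant in young (39.3 CPM) and F13a1 in control (14.3) and old (22.8). Basophil and mast cell markers were at 305, 31.4 and 60.6 CPM, with Prss34 the most abundant in young (139 CPM) and Mcpt8 in control (20.4) and old (54.7), and Cd200r3 was at 0 in old. In young, 4 cells with at least 10 UMIs of Prss34 held 84.7% of its UMIs, and 4 cells with at least 10 of Mcpt8 held 77.2% of those. In old, 3 cells with at least 10 of Mcpt8 held 19.7%. A Mcpt8 UMI was held by 29.1% of Mpo-high cells in young, 20.8% in control and 45.2% in old, in unthinned cells. Erythroid markers were at 186, 32.6 and 5.26 CPM, with Hbb-bs the most abundant (75.6, 13.5 and 2.20 CPM) and Hba-a1 at 52.5, 8.62 and 1.10 CPM, and Alas2 and Car1 were at 0 in old. In young, 3 cells with at least 10 UMIs of Hbb-bs held 41.8% of its UMIs. Dendritic cell markers were at 49.8, 19.9 and 19.2 CPM, most of all Cd74 in young (22.3) and H2-Ab1 in control (10.9) and old (16.9), with Cd209a at 0 in control and Siglech and Cd209a at 0 in old. B progenitor markers were at 43.9, 21.4 and 16.6 CPM, mostly Cd79b (26.6, 17.3 and 15.5), with Pax5 at 0 in control and Vpreb3, Ebf1, Pax5 and Rag1 at 0 in old. Macrophage markers were at 146, 99.2 and 90.8 CPM, of which Vcam1 alone had 135, 94.4 and 88.6 CPM, and 60.6%, 56.5% and 58.5% of unthinned Mpo-high cells held a Vcam1 UMI. Vcam1 was higher in Mpo-high than in the other kept cells, with log2 ratios of 2.23, 2.28 and 2.68. Eosinophil markers were at 14.5, 11.9 and 2.75 CPM, plasma cell markers at 6.33, 6.38 and 3.18, NK and T cell markers at 14.5, 0.78 and 0.92, and mesenchymal markers at 0.46, 0.00 and 0.06. At 0 in old were also Cd5l of the macrophage list, Epx and Ear6 of the eosinophil list and Klrd1, Klrb1c, Ncr1 and Cd3e of the NK and T cell list. Stem and progenitor markers were at 75.4, 44.1 and 40.1 CPM, with Kit the most abundant in young and control and Cd27 (13.9 CPM) in old. The part of these cells or of their free RNA in the library differences was not tested. With cells of at least 5 UMIs of other lineages left out, young was above both others in 334 genes and below in 96. Control was above in 135 and below in 103, and old above in 158 and below in 192. With all Mpo-high cells these counts were 275 and 77, 105 and 98, and 144 and 151. The share of the genes measured without those cells was not computed.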

How the data were processed

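Bone marrow CD133+ cells of 3 libraries (young, control, old; 3 mice pooled in each) were sequenced by the authors on the 10x Chromium 3′ platform. The authors deposited matrices of raw UMI counts for 27998 genes, without normalization; the submitters' processing notes name STAR, Cell Ranger 2.1.0 and mm10, and whether library depth was equalised is not given in the sources used here. Libraries held 8362, 10869 and 10597 cells and 81434722, 108985799 and 138030352 UMIs (young, control, old). Pairs of libraries shared 120 to 161 cell barcodes, 3 of each pair among Mpo-high cells.

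Cells were kept and selected as given above, UMIs were summed over cells and expressed as CPM. Exact intervals were computed at 95%, by the Poisson distribution for CPM, by Clopper-Pearson for shares of cells and by a binomial conditional on both sums for log2 ratios. Doublets were not removed. An alternative left out cells with at least 5 UMIs of other-lineage markers, Vcam1 among them. With 1 library a group no test was made, and genes were counted by size: at least 10 CPM, 2 times between cell sets in all 3 libraries, 1.5 times beyond both other libraries. Scripts were checked on simulated data. Named genes were the 4 markers, the study's genes, the 15 highest and 15 lowest against other cells and those furthest beyond both other libraries (10 for old, 5 for young and control), at 50 CPM or more, plus the most abundant, most extreme or counted members of each list. Members, lists and limits were chosen with earlier results of these data known. Of gene identifiers 27645 matched GENCODE M21 (GRCm38). Python 3.11.15, numpy 2.4.6, scipy 1.17.1 and pandas 2.3.3 were used. Alternatives changed the Mpo threshold, UMI limits, depth, cells with other-lineage markers, total, centring, minimum, limit and comparison cells. Leaving out each library and leaving out cells with 120 or more Mpo UMIs per 10000 were chosen after seeing the data, as were the values without the 4 markers or without the UMIs of few cells. Promoters are of RefSeq GRCm38.p6. Some members of the lists are not reported here.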

Additional observations from a re-analysis of the deposited data

Results flagged for a closer look

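The ratio of Mpo-high to other cells went one way in the old library and the other way in both 3-month libraries for 5 of the genes described or listed, with each interval clear of 0, and the difference between libraries was not tested. Mcpt8, a mast cell protease gene of basophils, had log2 ratios of -0.49 in young, -1.03 in control and 1.32 in old. In young 4 of 1332 Mpo-high cells held 77.2% of its UMIs, without which it was at 31.3 CPM instead of 137, and in old 3 cells held 19.7%, without which it was at 43.9 CPM instead of 54.7. Ifit1, an interferon-stimulated gene, had -0.62, -2.38 and 3.57, at 27.0, 0.22 and 6.79 CPM in Mpo-high cells. Its control and old values are under the 10 CPM minimum, and how few cells held its UMIs was not examined. Both kept these directions after centring on the median of all genes, at -0.98, -1.56 and 0.78 for Mcpt8 and -1.10, -2.90 and 3.03 for Ifit1. The remaining genes were below 0 in all 3 libraries after that centring, so that their change of sign depends on where the scaling puts 0. Without centring Galns, a lysosomal sulphatase gene, had -0.14, -0.13 and 0.23, Tubb4b, a tubulin gene, had -0.33, -0.18 and 0.05, and Csf2ra, a chain of the GM-CSF receptor, had 0.36, 0.07 and -0.06.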

How the results depend on the processing

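The order of the shares, young above control above old, was kept at thresholds of 30 and 60 and under each UMI limit, thinning and other-lineage alternative. It did not hold at all lower Mpo levels: at 10 UMIs per 10000 control (26.8%) was above young (26.2%), with old at 24.2%. A threshold of 30 Mpo UMIs per 10000 gave 19.4%, 17.3% and 13.8%, a threshold of 60 gave 14.7%, 10.95% and 7.21%, and leaving out cells with other lineage markers gave 14.2%, 13.5% and 8.82%, by removing 40.9%, 14.2% and 25.3% of Mpo-high cells but 23.0%, 2.18% and 2.21% of the other cells. Without UMI limits the control share was 16.2%, and with limits set over the 3 libraries together the old share was 10.4%. Against other cells, genes higher and lower were 384 and 390 after centring on the median, 439 and 71 with a minimum of 50 CPM, 322 and 74 with a limit of 3 times, and 227 and 41 against cells with 10 to under 40 Mpo UMIs per 10000. Between libraries, the counts above and below both others with a minimum of 50 CPM were 56 and 31 in young, 44 and 19 in control, and 54 and 28 in old, and with a limit of 2 times 96 and 15, 10 and 29, and 50 and 27. The minimum of 50 CPM also leaves fewer genes measured in both comparisons. Its lower counts are therefore not lower shares of the genes measured, and those shares were not computed. Weighting the 4 Mpo bands equally gave 133 genes below in young, and thinning to 4000 UMIs gave 285 below in old. The cause of these last 2 changes was not tested. With 1 library left out the comparison is of a single pair and so counts more genes: young 457 to 698 above and 261 to 327 below, control 302 to 327 above and 310 to 457 below, and old 261 to 310 above and 302 to 698 below. No paired analysis was possible because the groups share only replicate number 1. Depth limits genes under about 10 CPM, and 1 library a group leaves the spread between mice unknown.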

Other observations

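Cells removed for a UMI total above the 95th percentile of their library held many with at least 40 Mpo UMIs per 10000, 131 of 419 in young (31.3%), 222 of 544 in control (40.8%) and 140 of 530 in old (26.4%). Below the 5th percentile these were 20 of 413 (4.84%), 57 of 530 (10.8%) and 45 of 526 (8.56%). Of cells over the mitochondrial limit, 2 of 9, 12 of 15 and 4 of 4 had that much Mpo.

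Hoxa9, a homeobox gene of early progenitors named here after its values were seen, was at 9.06 CPM in Mpo-high cells of the old library against 1.05 in young and 1.06 in control, under the minimum used for counting. Mpo-high cells held 81.5%, 73.1% and 62.5% of all Mpo UMIs of kept cells in young, control and old.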
